A study of Homo sapiens with 8 samples.

Results

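The comparison set out here is that of largazole with FK228 in HCT116 cells, an established human colorectal carcinoma line, both at 20 nM for 10 h. Its members are the 2 largazole arrays and the 2 FK228 arrays among 8 Affymetrix Human Genome U133 arrays in the series, chosen by treatment label alone. The other arrays are 2 of cells given vehicle, which supply the level from which each compound moved, and 2 of cells given SAHA (vorinostat) at 2 µM, which entered the fit for its estimate of the spread. All cultures came from the same line and differed in the labels only by treatment. The labels speak of a duplicate experiment and do not say whether the arrays of a group came from separate cultures, so the p-values rest on a spread between arrays that may be technical. The question was at which transcripts the compounds differed directly, and whether a difference was a larger change in a shared direction or a change in another direction.

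Histone deacetylases remove acetyl groups from histone tails and from other proteins, and cells given an inhibitor accumulate acetylated chromatin while many genes rise and many fall. Largazole and FK228 (romidepsin) are cyclic depsipeptides that share a side chain ending in sulfur. In largazole that sulfur is capped as an octanoyl thioester and in FK228 it is closed into a disulfide bridge. Both caps are removed in cells, and the freed thiol binds the zinc in the active site of class I deacetylases. The rings that carry the side chain differ between the compounds.

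Array medians ran from 4.47 to 4.51 (log2). Over all probe sets Pearson's r was 0.997 between the largazole arrays, 0.9953 between the FK228 arrays and 0.993 to 0.994 between arrays of the different compounds, and probe sets are not independent replicates. Of 9 markers of colon carcinoma epithelium on the array, 7 exceeded the filter value of 4.49 in vehicle, largazole and FK228 cells alike, while VIL1 did so in only some groups and LGALS4 in none. Of 8 leukocyte markers 1 did so (ITGAM), of 10 fibroblast and endothelial markers 4 did (COL1A1, PDGFRB, PECAM1 and VWF, the highest COL1A1 at 8.40 with largazole), and of 9 markers of other epithelial lines 6 did (the highest GATA3 at 7.41 with each compound). The part of such genes in the results was not tested. The number of arrays limits precision, and the 95% interval of FK228 minus largazole had a median half-width of 0.241 over genes.

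FK228 and largazole differed at 1214 of 13381 tested genes (9.07%, limma, adjusted p under 0.05). FK228 gave the higher level at 561 (4.19%) and largazole at 653 (4.88%). Counted by probe set, 2385 of 28985 passed (8.23%). Most differences were small: the median absolute log2 difference was 0.146 over all genes and 0.535 over those that passed, and the largest was 2.32. Only 70 genes (0.523%) passed and differed at least 2-fold, 11 of them higher with FK228 and 59 higher with largazole. On the 4 arrays the compounds' values did not overlap at any of the 1214 genes, a state that 7821 of all tested genes (58.4%) shared. At 10490 genes (78.4%) the whole 95% interval of the difference lay within 1.5-fold in either direction. The calls lean on every array of the pair: 99 genes passed without largazole replicate 1, 173 without largazole replicate 2, 332 without FK228 replicate 1 and 359 without FK228 replicate 2. Because the compounds' values did not overlap at the 1214 genes, leaving out an array could not turn a sign there.

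Against vehicle, 6044 genes passed with largazole (45.2%; 2936 higher, 3108 lower) and 7060 with FK228 (52.8%; 3440 higher, 3620 lower). The median absolute log2 change from vehicle was 0.275 with largazole and 0.333 with FK228, and the number of genes at least 2-fold from vehicle was 1220 and 1857. These comparisons share their vehicle arrays with each other and their treated arrays with the direct comparison, so the classes that follow describe the direct calls and are not independent tests.

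Set against the vehicle level, 748 of the 1214 genes (61.6%) had moved the same way with both compounds and further with FK228. Of these, 335 had risen, with a median log2 change of 0.71 with largazole and 1.29 with FK228, and 413 had fallen, with medians of -0.99 and -1.60. Another 304 genes (25.0%) passed against vehicle with FK228 alone, and 84 (6.92%) with largazole alone. Here and below, alone means that the other compound's change missed the threshold, not that it was absent. By sign, 201 of the 304 and 39 of the 84 had moved the same way with both compounds. A larger shared change with largazole was seen at 31 genes (2.55%), 26 of them rises and 5 falls. Opposite movement, with both changes past the threshold, was seen at 11 genes (0.906%). The remaining 36 genes (2.97%) passed against vehicle with neither compound. Of the 70 genes that differed at least 2-fold, 53 were larger shared changes with FK228 and 13 passed against vehicle with FK228 alone. Another 3 had moved opposite ways and 1 was a larger shared change with largazole.

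**Figure D1:**
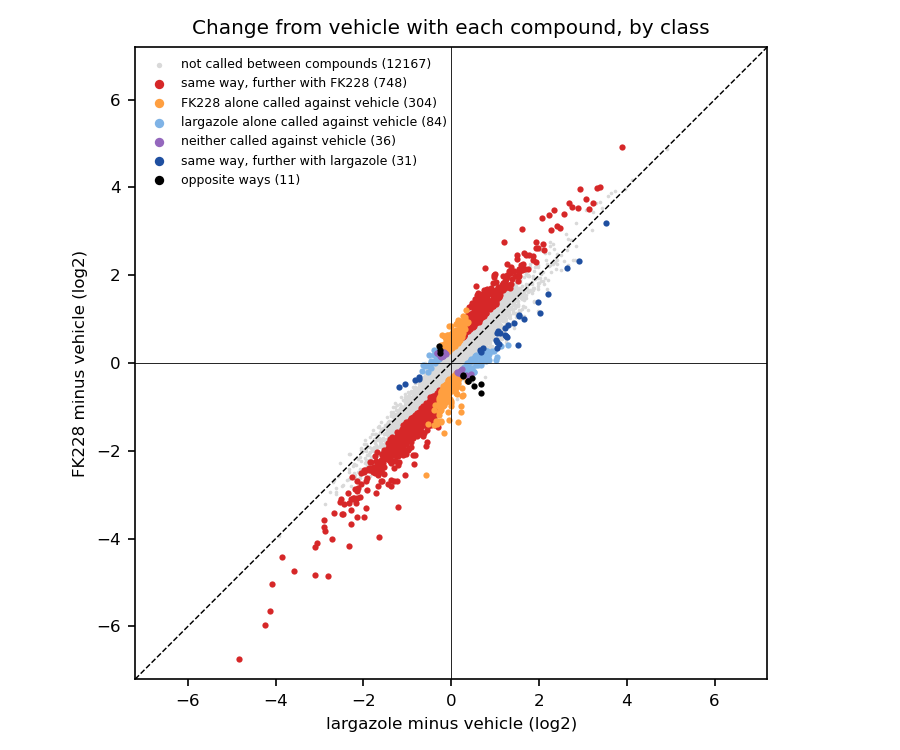
Change from vehicle with largazole (horizontal, log2) and with FK228 (vertical, log2) for 13381 genes, 1 point per gene, coloured by class; the dashed line marks equal change. Red points, 748 genes that moved the same way and further with FK228, lie outside the dashed line on the vertical side in both directions, while 31 dark blue points (further with largazole) and 11 black points (opposite ways) are few.

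The largest difference of all was at TGIF1, a homeodomain corepressor that restrains TGF-beta and retinoid signalling. Its log2 level was 10.34 and 10.43 on the vehicle arrays, 8.79 and 8.69 with largazole and 6.35 and 6.49 with FK228. The groups stood in that order with no overlap, and largazole covered 41.4% of the fall seen with FK228. FK228 minus largazole was -2.32 ± 0.089 (SE, n = 2 arrays per group; adjusted p = 0.000194), a 5.01-fold difference. A pair of its 3 probe sets passed in this direction; without probe sets named _x_at or _s_at another one stood for the gene, at -0.04 (adjusted p = 0.874, against at most 0.00442 with any array left out). PHLDA1, an early-response protein induced by ERK signalling, was at 11.84 and 11.75 with vehicle, 10.62 and 10.55 with largazole and 8.48 and 8.55 with FK228. Here too the FK228 arrays were lowest, the difference was -2.07 ± 0.10 (adjusted p = 0.000356), and 5 of 6 probe sets passed the same way.

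The 250 bases before the start of these 2 genes, of DACT3 (higher with FK228) and of CCNE1 (moved opposite ways) are shown so that genes of each sign can be read beside each other; they were chosen with the results known. They are RefSeq sequences of GRCh38.p14, 5′ to 3′ on the gene's own strand, with each GC box (GGGCGG, or CCGCCC on the other strand, the letters bound by SP-family factors) in capitals. TGIF1 lies on the plus strand at chr18:3411759-3412008 and holds 2, PHLDA1 on the minus strand at chr12:76031777-76032026 and holds 1, DACT3 on the minus strand at chr19:46661183-46661432 and holds 4, and CCNE1 on the plus strand at chr19:29811741-29811990 and holds 7.
TGIF1: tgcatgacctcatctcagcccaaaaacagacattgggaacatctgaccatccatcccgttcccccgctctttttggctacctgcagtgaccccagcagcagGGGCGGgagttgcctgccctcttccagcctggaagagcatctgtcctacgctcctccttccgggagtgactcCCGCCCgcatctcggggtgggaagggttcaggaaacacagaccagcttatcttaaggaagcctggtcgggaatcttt
PHLDA1: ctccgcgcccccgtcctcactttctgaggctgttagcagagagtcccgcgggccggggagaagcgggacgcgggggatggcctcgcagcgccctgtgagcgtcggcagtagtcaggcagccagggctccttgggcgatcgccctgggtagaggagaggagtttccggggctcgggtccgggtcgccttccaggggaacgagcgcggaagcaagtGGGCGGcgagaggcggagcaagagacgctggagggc
DACT3: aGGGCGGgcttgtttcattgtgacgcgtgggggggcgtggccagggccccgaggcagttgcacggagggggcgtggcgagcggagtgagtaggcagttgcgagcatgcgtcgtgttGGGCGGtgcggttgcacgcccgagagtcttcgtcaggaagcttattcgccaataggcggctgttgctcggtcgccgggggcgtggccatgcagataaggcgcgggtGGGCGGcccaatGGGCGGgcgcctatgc
CCNE1: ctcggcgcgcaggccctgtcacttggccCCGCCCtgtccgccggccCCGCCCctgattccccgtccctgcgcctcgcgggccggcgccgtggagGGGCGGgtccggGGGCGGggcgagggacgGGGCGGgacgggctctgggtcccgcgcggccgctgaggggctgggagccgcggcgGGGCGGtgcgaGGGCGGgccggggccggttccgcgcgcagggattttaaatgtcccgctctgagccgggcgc
Over the 250 bases before the start in the RefSeq table, at least 1 GC box on either strand was present in 42.3% of all 27305 entries and in 66.3% of the 10763 tested genes that matched. The share was 76.1% of 464 matched genes that were higher with FK228 and 64.8% of 528 that were higher with largazole. These shares are descriptions of the letters and were not tested.

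The 10 genes lowest with FK228 relative to largazole include TGIF1, PHLDA1 and 8 others, and all but WNT16 had fallen with both compounds. CYP24A1, the vitamin D 24-hydroxylase, went from 9.34 and 9.41 with vehicle to 6.52 and 6.60 with largazole and 4.33 and 4.69 with FK228, a difference of -2.05 ± 0.14 (adjusted p = 0.00113). PDE4B, a cAMP phosphodiesterase, went from 10.35 and 10.32 to 5.47 and 5.53 and 3.42 and 3.78, so that the bulk of its fall was shared and the compounds differed by -1.90 ± 0.12 (adjusted p = 0.00113). The FK228 levels of PDE4B lie under the filter value, near background, which makes the size of that fall less certain. EREG, the EGF receptor ligand epiregulin, stood at 11.71 and 11.29 with vehicle, 9.18 and 9.16 with largazole and 7.56 and 7.09 with FK228 (-1.84 ± 0.21, adjusted p = 0.00497).

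NRIP1, a corepressor of nuclear receptors, differed by -1.71 ± 0.13, the protocadherin PCDH7 by -1.52 ± 0.14 and the orphan nuclear receptor NR2F1 (COUP-TFI) by -1.52 ± 0.17, with adjusted p of at most 0.00432 (limma). The FK228 mean of NRIP1 (4.35) lies under the filter value. HMGA2, an architectural chromatin protein expressed in embryos and tumours, was at 10.13 and 9.99 with vehicle, 6.01 and 5.60 with largazole and 4.14 and 4.07 with FK228, a difference of -1.70 ± 0.15 (adjusted p = 0.00242). Its FK228 arrays lie under the filter value, and without probe sets named _x_at or _s_at the value was 0.07 (adjusted p = 0.748, against 2.72e-05 to 0.0235 elsewhere); with its 3 probe sets averaged it was -0.55. The Wnt ligand WNT16 was the exception to shared movement: its largazole arrays (7.85 and 7.42) came close to the vehicle arrays (8.45 and 7.96) and that change did not pass (-0.57, adjusted p = 0.0771), while FK228 brought it to 5.79 and 5.52 (-1.98 ± 0.22 from largazole, adjusted p = 0.00468). Of 2 WNT16 probe sets 1 passed. With a gene's probe sets averaged, the differences of WNT16 (-1.06), PDE4B (-1.14), EREG (-1.01) and PCDH7 (-0.43) were smaller and still passed.

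**Figure D2:**
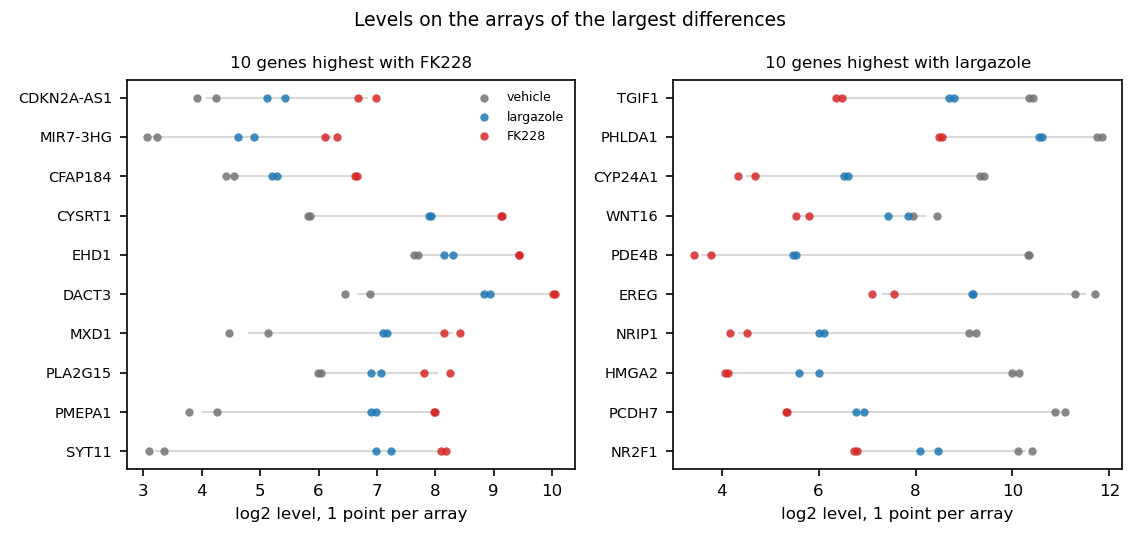
Log2 level on each vehicle, largazole and FK228 array (1 point per array) for the 10 genes with the highest and the 10 with the lowest level with FK228 relative to largazole. In the left panel every gene runs from vehicle through largazole to FK228; in the right panel the order is reversed, and at WNT16 alone a largazole array (7.85) comes close to a vehicle array (7.96).

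At the other end, each of the 10 genes highest with FK228 had risen with both compounds. The leading pair are non-coding: the CDKN2A antisense transcript CDKN2A-AS1 was at 4.25 and 3.92 with vehicle, 5.43 and 5.12 with largazole and 6.99 and 6.67 with FK228, and MIR7-3HG, the host transcript of a miR-7 gene, at 3.23 and 3.06, 4.62 and 4.90 and 6.12 and 6.31. The compounds differed by 1.56 ± 0.17 (adjusted p = 0.00404) and 1.45 ± 0.14 (adjusted p = 0.00273). Vehicle levels of both lie under the filter value, and signal of the antisense transcript is separated from its partner only by the probe set's design. EHD1, which drives recycling of endocytosed receptors, rose from 7.70 and 7.64 to 8.30 and 8.15 with largazole and 9.43 and 9.44 with FK228; all 5 of its probe sets passed in this direction (1.21 ± 0.13, adjusted p = 0.00432).

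DACT3, a Dishevelled-binding inhibitor of Wnt signalling known to be silenced in colorectal cancer, went from 6.88 and 6.45 to 8.94 and 8.84 and 10.05 and 10.02 (1.15 ± 0.14, adjusted p = 0.00587). MXD1, the MAX partner that opposes MYC, differed by 1.15 ± 0.22, the lysosomal phospholipase PLA2G15 by 1.05 ± 0.17, the TGF-beta feedback inhibitor PMEPA1 by 1.04 ± 0.15 and the synaptotagmin SYT11 by 1.03 ± 0.13, with adjusted p of 0.00691 to 0.0235. CFAP184 (1.40), a cilia-associated protein, and CYSRT1 (1.23) complete the group. The MXD1 call ended without any of the 4 arrays compared (adjusted p up to 0.12), that of PLA2G15 without either largazole array or FK228 replicate 2 (up to 0.0831), that of PMEPA1 without either largazole array (up to 0.0695) and that of SYT11 without largazole replicate 1 (0.0606).

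Among the genes that passed against vehicle with FK228 and not with largazole, 139 were lower and 165 higher with FK228. RUNX2, a Runt-family transcription factor, was at 5.73 and 5.34 with vehicle and 5.58 and 5.80 with largazole, ranges that overlap, and at 4.17 and 4.20 with FK228. Its FK228 levels lie under the filter value, near background. FK228 minus largazole was -1.50 ± 0.14 (adjusted p = 0.00273), and the change from vehicle was 0.16 with largazole (adjusted p = 0.44) and -1.35 with FK228. ZFP36L1, which binds AU-rich elements and speeds mRNA decay, showed the same layout, with 9.79 and 9.61 for vehicle, 9.67 and 9.38 for largazole and 8.10 and 8.10 for FK228 (-1.43 ± 0.13, adjusted p = 0.00254). IRF2BP2, a transcriptional corepressor, was at 9.47 and 9.26, 9.35 and 9.28 and 8.08 and 8.04, with 4 of 6 probe sets passing in this direction (-1.26 ± 0.12, adjusted p = 0.00254). With probe sets averaged the difference was -0.57 for RUNX2 and -0.72 for IRF2BP2, and both passed. The other RUNX2 probe set had the opposite sign (0.37) and did not pass, and a further IRF2BP2 probe set averaged 8.11 with vehicle and 7.37 with largazole.

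The arrestin-domain protein ARRDC3 (-1.35 ± 0.23, adjusted p = 0.0173) and the gut endoderm factor GATA6 (-1.20 ± 0.18, adjusted p = 0.0117) belong to the same class. Their vehicle and largazole arrays overlap, and both FK228 arrays lie below them. The ARRDC3 call ended without any of the 4 arrays compared (adjusted p up to 0.118), and that of GATA6 without either largazole array or FK228 replicate 2 (up to 0.0909), and with its 2 probe sets averaged (-0.42). In the other direction CPTP, a ceramide-1-phosphate transfer protein, was at 6.78 and 6.94 with vehicle, 6.82 and 6.77 with largazole and 7.71 and 7.69 with FK228 (0.90 ± 0.087, adjusted p = 0.00273). LZTFL1, which regulates trafficking to cilia, was at 7.9998 and 8.04, 8.04 and 7.99 and 8.86 and 8.86 (0.84 ± 0.089, adjusted p = 0.00397), and KLHL21, a substrate adaptor of a cullin ubiquitin ligase, differed by 0.83 ± 0.081 (adjusted p = 0.00285). At CPTP and LZTFL1 the largazole arrays overlap the vehicle arrays, and both FK228 arrays lie above them.

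The 31 genes moved further with largazole were mostly rises. PTGS2, the inducible prostaglandin synthase COX-2, was at 3.95 and 4.10 with vehicle, 4.41 and 4.48 with FK228 and 5.56 and 5.52 with largazole. The FK228 arrays lay just above vehicle and the largazole arrays above both, a difference of -1.09 ± 0.089 (adjusted p = 0.00197), and PTGS2 stayed in this class in all 21 settings that gave it a value. Its vehicle and FK228 levels lie under the filter value. GJA1, the gap junction protein connexin 43, was at 3.31 and 2.94, 4.34 and 4.21 and 5.26 and 5.04 in the same order (-0.88 ± 0.14, adjusted p = 0.0137), with its vehicle and FK228 arrays near background. CITED2, a CBP/p300-binding inhibitor of the hypoxia response, was at 7.77 and 7.56, 8.01 and 7.998 and 8.85 and 8.59 (-0.72 ± 0.11, adjusted p = 0.0129). PRAG1, a pseudokinase scaffold, followed at -0.67 ± 0.09, the fibrillar collagen gene COL1A1 at -0.67 ± 0.15 and the Wnt5a receptor ROR1 at -0.65 ± 0.15, with adjusted p up to 0.0437. The probe set means of CITED2 (-0.30), COL1A1 (-0.17) and ROR1 (-0.30) did not pass.

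The 5 falls that were larger with largazole include UTP20, a component of the small-subunit processome that assembles ribosomes. It was at 8.69 and 8.61 with vehicle, 8.17 and 8.05 with FK228 and 7.42 and 7.48 with largazole (0.66 ± 0.087, adjusted p = 0.00775). The mitochondrial transcription factor TFB2M (0.43), the BRCA1 partner BARD1 (0.42) and the mitochondrial tRNA methyltransferase TRMT61B (0.39) differed by less, with adjusted p of 0.0256 to 0.0369. Without largazole replicate 1, 1 gene was left in this class of 31, and without largazole replicate 2, FK228 replicate 1 or FK228 replicate 2 there were 2, 6 and 4; without vehicle replicate 1 or 2 there were 20 and 18.

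Of the 84 genes that passed against vehicle with largazole alone, 55 were higher with largazole and 29 lower. CHSY3, a chondroitin synthase, was at 5.71 and 5.46 with vehicle, 5.84 and 5.45 with FK228 and 6.75 and 6.45 with largazole. Its FK228 and vehicle arrays overlap, and the compounds differed by -0.95 ± 0.16 (adjusted p = 0.0159). LGR4, a receptor for R-spondins that strengthens Wnt signalling, had the same layout at 5.75 and 5.25, 5.81 and 5.49 and 6.73 and 6.37 (-0.91 ± 0.20, adjusted p = 0.0382), though only 1 of its 2 probe sets passed and the other had the opposite sign, so that their mean (-0.42) did not pass. HIRA, a chaperone that deposits replacement histones, was lower with largazole (9.75 and 9.67) than with vehicle (10.17 and 10.25) or FK228 (10.40 and 10.37), a difference of 0.68 ± 0.08 (adjusted p = 0.00555). The ceramide transporter CERT1 (0.69 ± 0.10), the mitochondrial DNA helicase TWNK (0.54 ± 0.094) and the cell cycle phosphatase CDC25A (0.57 ± 0.10) were also lower with largazole. Without probe sets named _x_at or _s_at another probe set stood for CERT1, at 0.23, and it did not pass. The direct calls of this class did not hold with each of the 8 arrays left out in turn, and neither did most calls of every other class. For CHSY3, LGR4, HIRA, CERT1, TWNK and CDC25A the highest adjusted p in those fits was 0.111, 0.208, 0.0536, 0.0936, 0.108 and 0.0987, each with a largazole array left out.

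The largest difference among genes with opposite movement was at AXIN2, a scaffold of the beta-catenin destruction complex and a widely used transcriptional readout of Wnt signalling. AXIN2 was at 8.62 and 8.19 with vehicle, 9.07 and 9.07 with largazole and 7.62 and 7.84 with FK228. Both largazole arrays lay above both vehicle arrays and both FK228 arrays below them. The change from vehicle was 0.67 with largazole (adjusted p = 0.00719) and -0.67 with FK228 (adjusted p = 0.00545), and the compounds differed by -1.34 ± 0.14 (adjusted p = 0.00404), a 2.53-fold difference. It was of this class in all 22 settings, although 1 of its 2 probe sets passed and their mean gave -0.85. The other probe set averaged 5.69 with vehicle, 6.12 with largazole and 5.77 with FK228, and so shows no fall with FK228.

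ATXN1-AS1, an antisense transcript at the ATXN1 locus, was at 5.33 and 5.25 with vehicle, 6.02 and 5.93 with largazole and 4.83 and 4.79 with FK228 (-1.16 ± 0.081, adjusted p = 0.00142), and kept the class in all 21 settings that gave it a value. The non-coding LINC01003 (-1.04 ± 0.16), the scaffold FRMD4B (-0.80 ± 0.10), the Dishevelled antagonist DACT1 (-0.80 ± 0.11) and the PWWP-domain protein PWWP3B (-0.80 ± 0.11) were likewise above vehicle with largazole and below it with FK228. So were TMX4, a thioredoxin-related membrane protein of the endoplasmic reticulum (-0.58), and MCTP2, a calcium-binding membrane protein (-0.54). With probe sets averaged TMX4 was at -0.27 and did not pass. The vehicle (4.17) and FK228 (3.84) means of FRMD4B lie under the filter value, near background. DACT1 and DACT3 belong to the same family, and DACT3 had risen with both compounds.

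The other 3 genes ran the other way, below vehicle with largazole and above it with FK228. CCNE1, cyclin E1, which drives entry into S phase with CDK2, was at 9.01 and 9.16 with vehicle, 8.76 and 8.86 with largazole and 9.43 and 9.50 with FK228 (0.65 ± 0.088, adjusted p = 0.00861). SPOUT1, a methyltransferase-family protein found at centromeres, differed by 0.56 ± 0.087 and VKORC1L1, a vitamin K epoxide reductase, by 0.50 ± 0.084. The changes of these 3 from vehicle were small, between -0.27 and 0.38. CCNE1 was of the opposite class in 8 of 22 settings and in none of the 8 with an array left out, SPOUT1 in 7 and VKORC1L1 in 6 of 22. The other SPOUT1 probe set averaged 6.91 with vehicle, 6.47 with largazole and 6.87 with FK228, with no rise. The class as a whole held 2 genes without largazole replicate 1, vehicle replicate 1 or vehicle replicate 2, 5 without largazole replicate 2 and 4 without FK228 replicate 1.

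**Figure D3:**
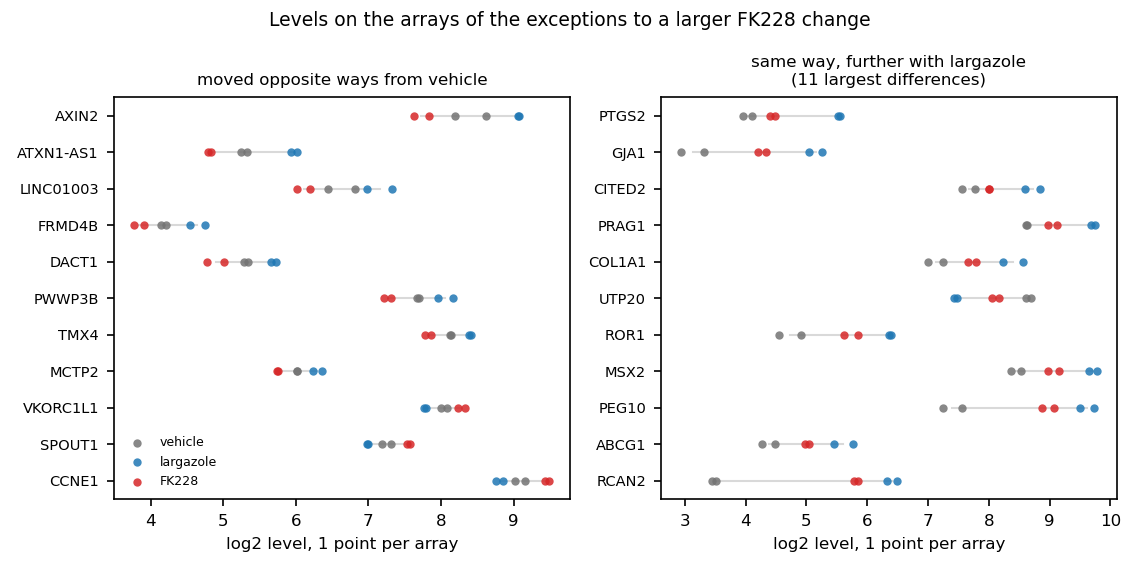
Log2 level on each vehicle, largazole and FK228 array (1 point per array) for the 11 genes that moved opposite ways from vehicle (left) and for the 11 genes with the largest differences among those moved further with largazole (right). In the left panel the vehicle points sit between the compounds, as at AXIN2 (8.62 and 8.19 between 9.07 and 7.62 to 7.84); in the right panel the FK228 points sit between vehicle and largazole.

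Transforming growth factor beta and bone morphogenetic proteins signal through receptor kinases to SMAD transcription factors, and inhibitory SMADs and corepressors such as TGIF1 feed back on the pathway. HCT116 cells are known for a mutant type II receptor gene. Of 31 tested genes of the pathway, 9 were lower and 2 higher with FK228, against 4.88% and 4.19% of all genes, and all 11 had moved the same way with both compounds and further with FK228; the list's median difference was -0.24, against -0.0032 over all genes. Among receptors and ligands, TGFBR2 went from 8.999 and 8.95 with vehicle to 7.94 and 7.91 with largazole and 6.49 and 6.37 with FK228 (-1.50 ± 0.094, adjusted p = 0.00113), and the ligand BMP4 from 9.86 and 10.04 to 9.02 and 9.24 and 7.76 and 7.96 (-1.28 ± 0.14, adjusted p = 0.00468). The receptor-activated SMAD1 (-1.37 ± 0.18) and SMAD3 (-0.83 ± 0.10) and the inhibitory SMAD7 (-1.31 ± 0.087) and SMAD6 (-0.98 ± 0.13) were lower as well. So were the stress-induced ligand GDF15 (-0.85) and the BMP target ID1 (-0.81). The FK228 mean of SMAD7 (3.56) lies under the filter value. The 2 members higher with FK228, PMEPA1 (1.04) and the pseudoreceptor BAMBI (0.38), both inhibit the pathway. Members that passed numbered 6 and 7 without largazole replicates 1 and 2 and 9 and 10 without FK228 replicates 1 and 2, and BAMBI did not pass with any array left out. With probe sets averaged SMAD6 was at -0.32 and did not pass, and SMAD3 was at -0.55 and did.

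Wnt ligands stabilise beta-catenin, which with TCF factors activates targets that include the pathway's own inhibitors, and HCT116 cells carry a stabilising beta-catenin mutation. Of 25 tested Wnt genes 6 were lower and 1 higher with FK228, with a median difference of -0.14; over all genes 4.88% were lower and 4.19% higher, with a median of -0.0032. RNF43, a ubiquitin ligase that removes Wnt receptors, went from 8.16 and 8.30 to 6.88 and 6.86 with largazole and 5.37 and 5.51 with FK228 (-1.43 ± 0.12, adjusted p = 0.00233). TCF7L2, the main TCF factor of colon, was at 12.40 and 12.14, 11.74 and 11.69 and 10.49 and 10.46, with 6 of 7 probe sets passing (-1.24 ± 0.11, adjusted p = 0.00248). MYC, a target in colon cancer, was at 10.88 and 10.91, 10.55 and 10.62 and 9.45 and 9.66: largazole covered 23.3% of the FK228 fall (-1.03 ± 0.094, adjusted p = 0.00254). AXIN2 moved opposite ways, as described, and the secreted inhibitor DKK1 rose with both compounds and further with largazole (-0.51 ± 0.087, adjusted p = 0.0164). CCND1 was lower (-0.47) and TNFRSF19 higher (0.62) with FK228. These members thus held 5 larger shared changes with FK228, 1 with largazole and 1 opposite change, and 4 members passed without each of largazole replicates 1 and 2 and FK228 replicates 1 and 2.

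Output and feedback genes of the ERK pathway were 5 lower and 2 higher with FK228 among 19 tested, with a median difference of -0.17; over all genes 4.88% were lower and 4.19% higher, with a median of -0.0032. Besides PHLDA1, the receptor kinase inhibitor SPRY2 went from 6.73 and 6.69 to 5.83 and 5.84 and 4.62 and 4.60 (-1.22 ± 0.081, adjusted p = 0.00113), and SPRED1 (-1.04), SPRED2 (-0.71) and the phosphatase DUSP4 (-0.58) were lower. DUSP2 (0.58) and DUSP7 (0.59), phosphatases of the same family as DUSP4, were higher. SPRED1, SPRED2 and DUSP2 passed against vehicle with FK228 alone. Without largazole replicates 1 and 2 the members that passed were 2 and 3, and without either FK228 replicate 4. With its probe sets averaged DUSP7 was at 0.27 and did not pass.

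Among lists of more than 7 tested genes, a pair of transcription factor families had the highest shares past the threshold, 39.1% (homeobox) and 38.7% (ETS and Krüppel-like) against 9.07% of all genes (4.88% lower and 4.19% higher with FK228). Of 23 tested HOX and TALE homeobox genes 9 were lower with FK228 and none was higher, with a median difference of -0.41; at an unadjusted p under 0.05 16 were lower and 0 higher. Beside TGIF1 these were HOXB8 (-1.03), MKX (-0.96), MEIS2 (-0.95), HOXB6 (-0.94), HOXB3 (-0.84), HOXD8 (-0.65), HOXB7 (-0.49) and HOXB5 (-0.43). The 5 HOXB genes lie in a single cluster and all had fallen with both compounds, whereas HOXD8 had risen with largazole alone. Of 31 ETS and Krüppel-like factors 11 were lower and 1 higher, with a median of -0.33: the epithelial factor EHF (-1.15) had fallen with both compounds, while ELF1 (-0.67), ETV6 (-0.69), ELK3 (-0.69), KLF6 (-0.68), KLF12 (-0.55) and KLF7 (-0.43) passed against vehicle with FK228 alone. KLF2, a shear- and statin-responsive factor, was higher (0.68). The homeobox count was 2, 3, 4 and 6 and the ETS and Krüppel-like count 1, 2, 6 and 2 without largazole replicates 1 and 2 and FK228 replicates 1 and 2 in turn. With probe sets averaged EHF was at -0.74 and HOXB3 at -0.38, and both passed, while HOXB5 (-0.29) and KLF7 (-0.25) did not. MKX levels with largazole (3.64) and FK228 (2.68) lie under the filter value, and its other probe set did not pass (-0.44). The FK228 levels of HOXB6 (4.12) and EHF (3.79) lie under it too. Without probe sets named _x_at or _s_at another probe set stood for KLF2, at 0.18, and it did not pass.

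Genes of ribosome production went the other way. Of 35 tested genes of ribosome biogenesis and RNA polymerase I, 7 were higher with FK228 and 1 lower, with a median of 0.09, where 4.19% of all genes were higher and 4.88% lower. RRP9, a component of the U3 particle that cleaves pre-ribosomal RNA, was at 7.23 and 7.50 with vehicle, 7.62 and 7.64 with largazole and 8.36 and 8.52 with FK228 (0.81 ± 0.13, adjusted p = 0.0136). UTP20 (0.66), WDR3 (0.48) and POLR1C (0.46), a shared subunit of polymerases I and III, were lower than vehicle with largazole. DDX10 (0.47), RRP12 (0.43) and POLR1E (0.38) complete the higher group. RRP12 rests on 1 of its 4 probe sets, and with them averaged it was at 0.098 and did not pass. The lower gene was MYC (-1.03), which activates ribosome production. The 8 members were thus spread over 5 classes, and 1 passed without either largazole replicate, 3 without FK228 replicate 1 and 2 without FK228 replicate 2.

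Of 31 tested genes of the unfolded protein and ATF4 response 5 were higher and 2 lower with FK228, beside 4.19% and 4.88% of all genes, and the list's median difference was 0.03. DDIT3, the stress factor CHOP, rose by 0.57 with largazole and 1.31 with FK228 (0.74 ± 0.10 between them, adjusted p = 0.00733). SEL1L (0.64), HERPUD1 (0.33) and the chaperone DNAJB11 (0.42), parts of folding and degradation in the endoplasmic reticulum, had also risen with both, and CHAC1 (0.74), which degrades glutathione, with FK228 alone. The mTORC1 inhibitor DDIT4 (-0.60) and CEBPB (-0.36) were lower. Of 35 lysosome and autophagy genes 4 were higher and 0 lower with FK228 (limma; 6 and 2 at an unadjusted p under 0.05; median 0.05): the sialidase NEU1 (0.59), the kinase ULK1 (0.56), the cholesterol exporter NPC1 (0.49) and the channel MCOLN1 (0.44), all risen with both. With probe sets averaged NPC1 was at 0.23 and did not pass. Without largazole replicate 1 there was 1 stress-response gene and 0 lysosomal genes that passed, without largazole replicate 2 again 1 and 0, without FK228 replicate 1 there were 2 and 1, and without FK228 replicate 2 there were 2 and 0.

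In the chromatin machinery no deacetylase gene passed, where 9.07% of all tested genes did, and the lists are short. None of 4 class I deacetylase genes and none of 7 class II and IV genes passed, their differences ran from -0.24 to 0.22 and from -0.22 to 0.29, and at an unadjusted p under 0.05 the counts were 0 and 1 (limma). Of 33 corepressor subunits 4 were higher and 2 lower with FK228, where 4.19% of all genes were higher and 4.88% lower, and the list's median was -0.01. The higher ones were the SIN3 complex members BRMS1 (0.69), ING2 (0.61), ING1 (0.53) and SIN3A (0.50), and the lower ones TRERF1 (-0.72) and the NuRD subunit MTA1 (-0.46). Of 22 acetyltransferases and bromodomain readers 4 were lower and 1 higher (median -0.22): CREBBP, the CBP acetyltransferase, had fallen by 0.64 with largazole and by 1.37 with FK228 (difference -0.73 ± 0.13, adjusted p = 0.0177), and BRPF3, NCOA2 and BRD1 fell further with FK228 too. Of 38 tested genes of histone and DNA methylation 3 were lower and 2 higher with FK228 (median -0.12). The lower ones were the histone methyltransferases SETD1B (-0.97 ± 0.10, adjusted p = 0.00303), SUV39H1 (-0.47) and KMT2D (-0.45). The higher ones were JARID2 (0.43) and CBX2 (0.42), of the Polycomb complexes. None of 15 histone genes passed, although their median change from vehicle was 1.10 with largazole and 0.79 with FK228; 0 of them had an unadjusted p under 0.05 (limma). Without largazole replicates 1 and 2 no corepressor gene passed, and 0 and 1 of the acetyltransferases and readers did; without FK228 replicates 1 and 2 the counts were 1 and 3 and, for the latter list, 0 and 0. With probe sets averaged CREBBP (-0.17), KMT2D (-0.16), CBX2 (0.13) and MTA1 (-0.07) did not pass.

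With no filter on low levels 564 genes passed in place of 1214, and among the list members that did not were BAMBI, CCND1, DUSP4, DUSP7, TRERF1, MTA1, HOXB3, HOXB5, HOXB7, KLF7, KLF12, ELK3, WDR3, DDX10, POLR1C, POLR1E, RRP12, DNAJB11, HERPUD1, CEBPB, MCOLN1, SIN3A, BRPF3, NCOA2, BRD1, KMT2D, JARID2 and CBX2.

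**Figure D4:**
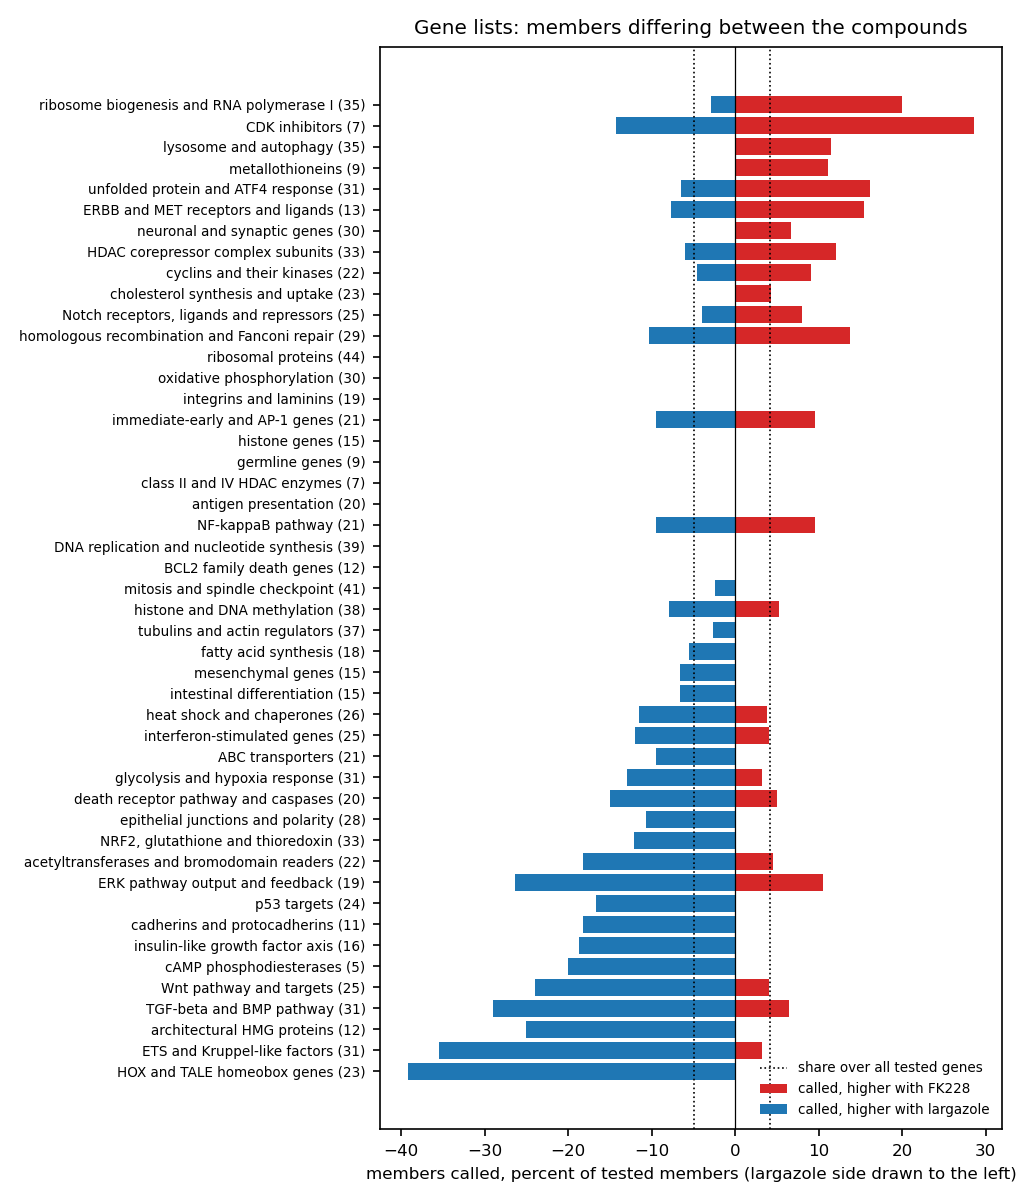
Share of tested members of 47 gene lists (number of members in parentheses) that passed with the higher level with FK228 (red, to the right) or with largazole (blue, drawn to the left of 0 as percent); dotted lines mark the shares over all tested genes, 4.19% and 4.88%. Homeobox, ETS and Krüppel-like, TGF-beta and ERK lists reach furthest to the left, and ribosome biogenesis and CDK inhibitors furthest to the right.

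Many functions showed no gene that passed between the compounds: DNA replication and nucleotide synthesis (39 tested, differences from -0.24 to 0.28), ribosomal proteins (44, -0.19 to 0.08), oxidative phosphorylation (30, -0.25 to 0.17), antigen presentation (20, -0.22 to 0.52), integrins and laminins (19, -0.41 to 0.23), BCL2 family death genes (12, -0.25 to 0.26) and survival genes (4, -0.41 to 0.31). At an unadjusted p under 0.05 the counts in these lists, in that order, were 7, 0, 1, 3, 4, 3 and 1 (limma). With replicate number as a block 1 replication gene, 2 antigen presentation genes, 2 integrins or laminins and 1 survival gene passed. Of 41 mitosis genes 1 passed, the hyaluronan receptor HMMR (-0.58), and 12 did with the block. Over all tested genes 9.07% passed. A difference that misses the threshold does not show equal action.

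Several genes that deacetylase inhibitors are known to raise had narrow intervals around a small difference. CDKN1A, the CDK inhibitor p21 and the textbook target of these compounds, was at 9.82 and 9.86 with vehicle, 10.62 and 10.79 with largazole and 10.78 and 10.79 with FK228. The largazole and FK228 arrays overlap, and the difference was 0.084 with a 95% interval of -0.13 to 0.30. DHRS2, a short-chain dehydrogenase, rose by 4.92 and 4.89 with the compounds (interval of the difference -0.27 to 0.21), and BCL2L11, the death gene BIM, by 1.63 and 1.63 (interval -0.23 to 0.24). Against these, CDKN1B, the CDK inhibitor p27, went from 9.61 and 9.51 to 8.60 and 8.44 and 7.75 and 7.68 (-0.81 ± 0.12, adjusted p = 0.0105). The inhibitors CDKN2D (0.75) and CDKN1C (0.47) rose further with FK228. Of 7 tested CDK inhibitors 3 thus passed, in both directions (median 0.08), where 9.07% of all tested genes did. Cyclin D1, CCND1, fell with both and further with FK228 (-0.47 ± 0.086, adjusted p = 0.02).

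In the panel of genes often followed after deacetylase inhibition, 29 were tested and 6 passed, where 9.07% of all tested genes did. CCNE1 and GADD45B (0.57 ± 0.10), a DNA-damage-inducible gene, were higher with FK228. CCND1, the p53 antagonist MDM2 (-0.70 ± 0.17), CDKN1B and MYC were lower. MDM2 fell with FK228 (-0.86) and its change with largazole did not pass (-0.16). Of the other 23, the interval lay inside 1.5-fold at 21, as it did at 78.4% of all tested genes, and the exceptions were BCL2L1 and EGFR. Over all 23 the bounds ran from -0.96 to 0.50. The growth factor receptors EGFR (-0.37), MET (-0.27), ERBB2 (-0.013) and ERBB3 (-0.086) were among the 23. So were the deacetylases HDAC1 (-0.023), HDAC2 (-0.24) and HDAC3 (0.22). The EGFR interval ran from -0.64 to -0.097, and another of its probe sets passed (-0.64, limma adjusted p = 0.0185) while the rest did not. The MDM2 call ended without any of the arrays of vehicle, largazole or FK228 (adjusted p up to 0.231), those of CCND1 and GADD45B without any of the 4 arrays compared (up to 0.146 and 0.112), that of CCNE1 without either largazole array (up to 0.0814) and that of CDKN1B without largazole replicate 1 or FK228 replicate 2 (up to 0.0873). Without probe sets named _x_at or _s_at other probe sets stood for GADD45B (0.03) and MDM2 (-0.04), and neither passed.

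**Figure D5:**
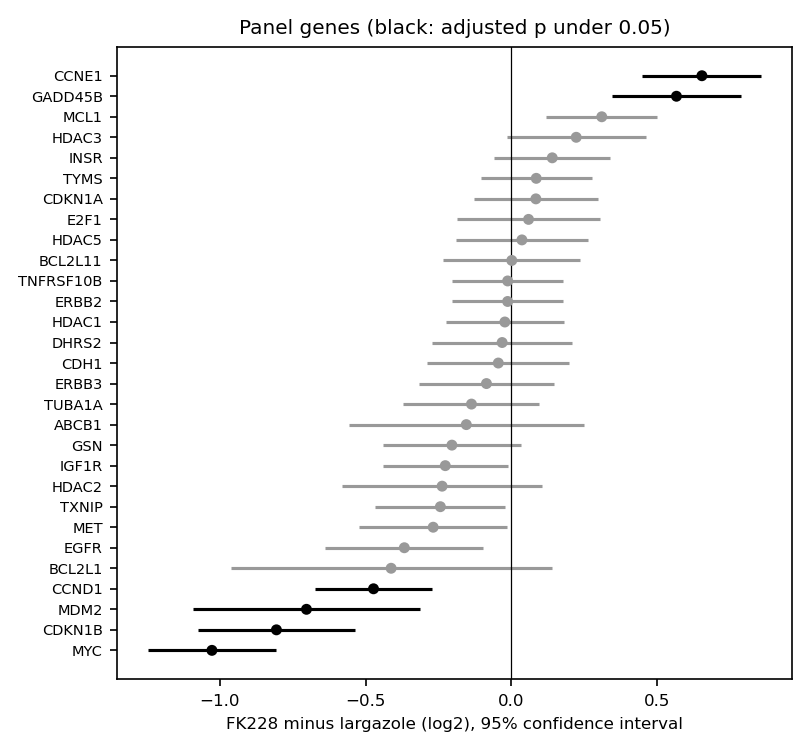
FK228 minus largazole (log2, horizontal) with its 95% confidence interval for 29 panel genes, black where the adjusted p was under 0.05. CCNE1 and GADD45B lie above 0 and CCND1, MDM2, CDKN1B and MYC below it, while CDKN1A, DHRS2 and BCL2L11 sit at 0.08, -0.03 and 0.00.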

How the data were processed

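Total RNA of HCT116 cells was measured on 8 Affymetrix arrays, 2 per group. The authors deposited log2 probe set levels; affy, RMA and limma are named, per the submitters' processing notes, with no version, role or order, and the sources used here give no genome build. Nearly equal array medians show a between-array normalization, which removes any global shift between compounds. Pearson's r and the markers were checked on these values.

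Of 54613 probe sets, 41091 carry exactly 1 gene symbol in the platform annotation, 1801 several and 11721 none; 41037 of the first matched RefSeq by gene ID. A probe set was tested, 28985 in all, when at least 2 of its 8 values were at or above the overall median (4.49). A gene stands for its tested probe set with 1 symbol and the highest mean, which gave 13381 genes from 24585 probe sets. All 8 arrays were fitted with limma 3.58.1 in R 4.3.3, 1 coefficient per group (4 residual and 3.69 prior degrees of freedom), and p-values were adjusted by Benjamini-Hochberg over tested probe sets. "Passed" means an adjusted p under 0.05. SE and intervals come from this fit. With 2 arrays a group, the smallest two-sided p of an exact permutation test is 0.333, so none was run. The figures come from matplotlib 3.10.9 (pandas 2.3.3, Python 3.11.15).

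Named genes are the 10 largest differences at each end, up to 6 per class and sign, a panel of genes, and up to 2 at each end of each list; others named were chosen after their values were seen. The comparison, the members of every list and the rules were chosen with earlier results of these data known. No set test was run; lists are described by counts and medians. On simulated data with 50 of 28985 probe sets changed per size, FK228 minus largazole recovered 48 of those changed 4-fold and 39 of those changed 2-fold. It recovered 17 of those changed 1.5-fold and 0 of those changed 1.2-fold, and 6 of 110 calls were false. Many more probe sets (2385) passed in the data, which alters the adjusted threshold, so these rates do not carry over to it. The alternatives were other filters, an intensity trend with a robust prior, a replicate block, array weights, 2 other scalings, other probe set choices, only the 4 arrays of the groups compared, each array left out, and other uses of the vehicle level. Where an array was left out, its partner was taken to have the spread of the other groups.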

Additional observations from a re-analysis of the deposited data

Results flagged for a closer look

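At 11 genes every largazole array lay on one side of the vehicle arrays and every FK228 array on the other, and the direct difference, which tests whether the changes under the compounds differ, passed (limma, adjusted p under 0.05). Values are FK228 minus largazole (log2, n = 2 arrays per group). Those above vehicle with largazole and below it with FK228 were AXIN2 (-1.34, adjusted p = 0.00404), ATXN1-AS1 (-1.16, 0.00142), LINC01003 (-1.04, 0.0125), FRMD4B (-0.80, 0.00673), DACT1 (-0.80, 0.0102), PWWP3B (-0.80, 0.00896), TMX4 (-0.58, 0.0117) and MCTP2 (-0.54, 0.0132). Those below vehicle with largazole and above it with FK228 were CCNE1 (0.65, 0.00861), SPOUT1 (0.56, 0.0127) and VKORC1L1 (0.50, 0.0158). AXIN2 and ATXN1-AS1 kept both changes from vehicle past the threshold with any of the 8 arrays left out, and the other 9 did not.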

How the results depend on the processing

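Counts depended on the setting. The number of genes that passed was 564 with no filter, 1924 with a stricter filter (6.87), 2024 with an intensity trend and robust prior, 1864 with the replicate block, 624 with only the 4 arrays compared, and 99 to 992 with an array left out. In the same order, genes higher with FK228 numbered 243, 949, 945, 825, 270 and 27 to 452, and genes higher with largazole 321, 975, 1079, 1039, 354 and 72 to 540. Probe sets that passed numbered 1058, 3279, 3741, 3587, 1240 and 191 to 1991, and 1359 without names ending in _x_at or _s_at. Larger shared changes with FK228 numbered 370, 1208, 1207, 1084, 430 and 77 to 631, and were 53% to 78.2% of the genes that passed in every setting.

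Larger shared changes with largazole numbered 8, 82, 72, 63, 12 and 1 to 23, with 20 without names ending in _x_at or _s_at and 70 by the sign of each change from vehicle alone. Opposite movement numbered 2, 23, 22, 21, 7 and 2 to 12, with 20 for probe set means, 3 when FK228 was set against vehicle replicate 2 and largazole against vehicle replicate 1, 2 at an adjusted p under 0.01 against vehicle, and 195 by sign alone. Changes with FK228 alone numbered 141, 422, 493, 483, 134 and 17 to 251. Changes with largazole alone numbered 27, 133, 141, 149, 27 and 2 to 65, with 53 under the crossed vehicle setting and 53 at 0.01. The cause of the differences in count between settings was not tested. Genes that passed and differed at least 2-fold numbered 50 to 87 in every setting.

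Without names ending in _x_at or _s_at other probe sets stood for HMGA2 (0.0658), HMGB2 (0.40) and PLEKHB1 (0.16), turning their sign without passing. Of 3573 values of named genes under settings that keep all arrays or take 4, 270 lost their call and 85 gained it. With an array left out, losses of the call were more frequent than gains. At genes that passed, the sign could not turn there, because the compounds' arrays did not overlap. With arrays set to equal medians of ribosomal protein probe sets 649 genes were higher with FK228 and 567 with largazole, and after a further quantile normalization 513 and 698. Same-numbered arrays deviated together only slightly (correlation 0.128 between largazole and FK228, 0.128 to 0.268 over all pairs of groups), and with 2 numbers the labels do not say what a number marks, so the block is an alternative only. Signal near background limits the size of changes whose low arrays lie under 4.49.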

Other observations

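Of the genes that passed and differed at least 2-fold, 46 are in no list, 37 of them lower and 9 higher with FK228. TRIB1, a pseudokinase scaffold that promotes degradation of C/EBP-alpha, was at 11.86 and 11.77 with vehicle, 10.93 and 10.997 with largazole and 9.54 and 9.47 with FK228 (-1.46 ± 0.083, SE, n = 2 arrays per group, limma adjusted p = 0.000878). BHLHE40, a repressor of the circadian and hypoxia responses, went from 8.69 and 8.63 to 7.32 and 7.40 and 5.90 and 6.05 (-1.38 ± 0.11, adjusted p = 0.00197). Both fell with each compound and further with FK228. Chromatin regulators in this group were the SWI/SNF subunit ARID1A (-1.09 ± 0.094), ARID5B (-1.04 ± 0.084), the bromodomain protein ZMYND8 (-1.29 ± 0.20) and the BCL6 corepressor BCOR (-1.05 ± 0.11). BCOR stood at 7.32 and 7.55 with vehicle and 7.33 and 7.39 with largazole, ranges that overlap, and at 6.32 and 6.31 with FK228; its other 2 probe sets averaged 6.26 and 5.95 with vehicle against 5.84 and 5.34 with largazole.

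Secreted factors and receptors were present as well. KITLG, the ligand of the KIT receptor, went from 12.85 and 12.82 to 11.31 and 11.21 with largazole and 10.26 and 10.06 with FK228 (-1.10 ± 0.094, adjusted p = 0.00233), and the intestinal hormone FGF19 from 8.11 and 8.03 to 6.87 and 6.85 and 5.82 and 5.67 (-1.12 ± 0.15, adjusted p = 0.0082). GPRC5A, an orphan receptor induced by retinoic acid, was at 9.03 and 9.02, 8.80 and 8.66 and 7.47 and 7.66 (-1.16 ± 0.095, adjusted p = 0.00197). Its fall with largazole was slight on this probe set, while the other averaged 8.59 with vehicle, 8.02 with largazole and 7.08 with FK228. SOCS6 (-1.39 ± 0.21), which restrains cytokine and KIT signalling, was lower with FK228 too. CYP46A1, the cholesterol 24-hydroxylase, was higher with FK228 (1.02 ± 0.11, adjusted p = 0.00416), with vehicle arrays at 4.30 and 4.36. The calls of SOCS6, FGF19 and ZMYND8 each ended in 2 of the 8 fits that leave out an array, and that of ZMYND8 also without probe sets named _x_at or _s_at (-0.12).

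SAHA gives a choice of genes by their change with SAHA and not by their change with either compound. A gene had to pass against vehicle with SAHA and to differ at least 2-fold. The largazole and FK228 arrays still entered the filter, the choice of probe set and the spread behind that adjusted p. Genes with a small spread within these arrays were therefore favoured, and the effect on the shares below was not tested. This choice was made after the data were seen. At 574 genes at least 2-fold higher than vehicle with SAHA, the median change was 1.30 with largazole and 1.47 with FK228, and FK228 was above largazole at 384 of them (66.9%). Of the 574, 124 passed as higher with FK228 and 15 as higher with largazole (24.2% in either direction). At 753 genes at least 2-fold lower with SAHA, the medians were -1.24 and -1.58, and FK228 was below largazole at 638 (84.7%). Of the 753, 230 passed as lower and 1 as higher with FK228 (30.7% in either direction). Over all tested genes 9.07% passed, 4.19% higher and 4.88% lower with FK228, and the median difference was -0.0032. These genes share the arrays they were measured on and are not independent, so the shares carry no test.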
